A study of Mus musculus with 20 samples.

Results

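Gene expression in the ganglion cell layer of the mouse retina was compared between dark and light adaptation on 4 of the 20 arrays of a study of dissected retinal layers. The 4 arrays were chosen by their labels: 2 from dark-adapted and 2 from light-adapted animals, each hybridised with biotin-labelled cRNA from tissue cut out by laser capture microdissection. All animals were adult C57BL/6 mice, 7 to 8 weeks of age, with no transgene or other genetic change named. The light group was light adapted for 6 h in a room lit at 450 lux in the light phase (ZT 0 to ZT 12, where ZT is time from lights on). The dark group was dark adapted for 3 h in a chamber of at most 0.4 lux. The time of day at which dark-adapted tissue was taken, the sex of the animals and the number of animals behind an array are not given in the sources used here. The p-values below therefore measure the spread between arrays, which may be technical. The other 16 arrays hold whole retina and 3 further dissected layers (inner plexiform, inner nuclear and photoreceptor) in the same duplicate design, and serve here to estimate the spread and for comparison.

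The ganglion cell layer is the innermost layer of cell bodies in the retina. It holds the ganglion cells, the projection neurons whose axons form the optic nerve, together with displaced amacrine cells, astrocytes, ends of Müller glia and blood vessels. Light reaches ganglion cells mainly through the rods, cones and bipolar cells, while a small class of ganglion cells senses light itself with melanopsin. Changes of illumination alter the firing of these cells, and in many neurons a change of firing is followed within hours by a change in immediate early genes and in the clock genes of the Period family.

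The data showed almost no difference between the groups that passed the test. Of 15057 genes, 1 was lower in dark at an adjusted p under 0.05 (0.00664% of genes) and 0 were higher (0.0%), in limma's moderated test over all genes with Benjamini-Hochberg adjustment. The 1 gene was Vmn1r74, a vomeronasal pheromone receptor gene. At an unadjusted p under 0.05, 326 genes were higher (2.17%) and 288 lower (1.91%), 614 in all (4.08%). The median difference, dark minus light on the log2 scale, was 0.01, with quartiles of -0.18 and 0.18, and 51.2% of genes were above 0. The standard error of a gene's difference had a median of 0.28. For 11175 genes (74.2%) the 95% interval of the difference lay inside -1 to 1. A change of 2-fold or more was outside the interval for these genes, and for the others it was not. Low intensities had been raised to a common floor before the fit. Genes under that floor on every array of this layer, such as Opn1sw, had their difference set to 0 by it. For such genes a narrow interval does not exclude a change of that size below the floor. The dark and light arrays did not overlap for 4335 genes (28.8%), so with 2 arrays a group such separation alone says little about a gene. A difference beyond 1 in size was measured for 107 genes, 45 higher and 62 lower.

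**Figure D1:**
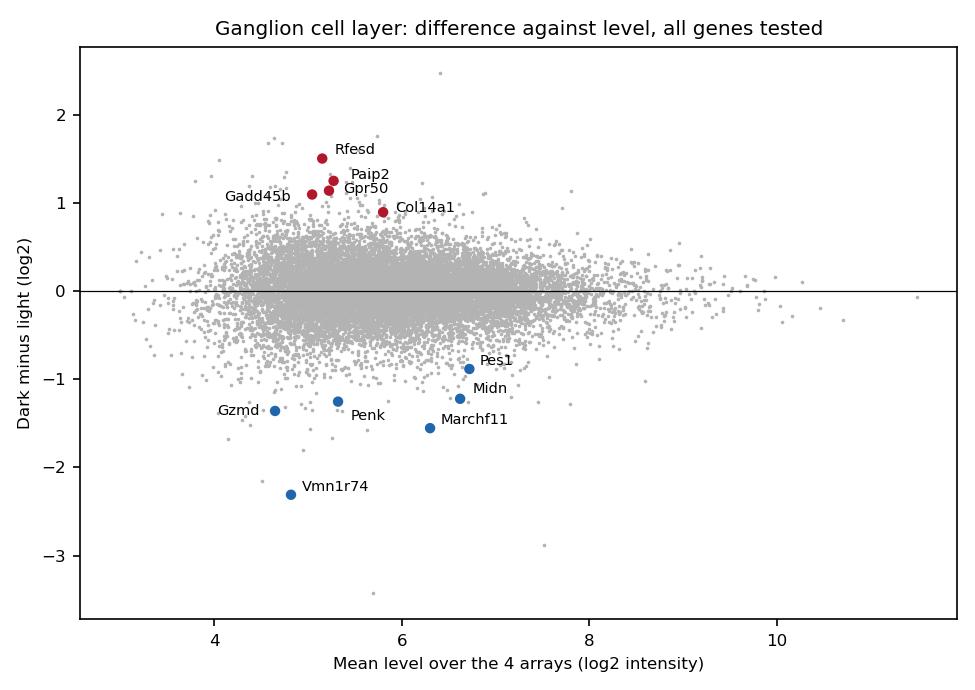
Difference between dark and light (log2, vertical axis) against the mean level over the 4 ganglion cell layer arrays (log2 intensity, horizontal axis). Each grey point is 1 of 15057 genes, and coloured points are the genes with the smallest p in each direction; Vmn1r74 at -2.31 is the only one past the adjusted threshold, and several grey points with differences as large did not pass.

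The tissue label was checked first. Thy1, a surface protein of ganglion cells, had intensities of 497 and 618 in light and 534.5 and 573 in dark, against 1.2 to 24.6 on the 12 arrays of the other 3 layers. All 4 arrays were thus far above every array of another layer. The mean log2 level of 25 ganglion cell markers was 6.63 and 6.99 in light and 6.55 and 6.92 in dark. The same genes averaged 5.88 on inner plexiform, 5.55 on inner nuclear and 5.37 on photoreceptor arrays. Median intensities of the 4 arrays were nearly equal, at 40.3 to 40.6.

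Vmn1r74 was at 74.0 and 53.4 in light and at 14.5 and 11.1 in dark. Both dark arrays were below both light arrays, and also below the median of the other 3 layers, where the 12 arrays ran from 8.0 to 53.3 with a median of 19.3. The difference was -2.31 ± 0.34 (standard error of the fit, n = 2 against 2, limma adjusted p = 0.0445, 95% interval -3.02 to -1.60). Receptors of this family are known from sensory neurons of the vomeronasal organ. Chemosensory receptor genes as a class had 33 of 395 members at an unadjusted p under 0.05 (8.35%, against 4.08% of all genes). The call was not stable: leaving out 1 of the 20 arrays ended it in 16 cases, with adjusted p from 0.0148 to 0.538 over all 20 (it stayed without either light-adapted photoreceptor or either dark-adapted inner nuclear array), and the fit on the ganglion cell layer arrays alone gave 0.764.

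Beside this gene stands a signal that differed between the groups in this layer as a whole. Over 30 probe sets of Y-linked genes, of which 19 belong to Srsy, a multicopy gene of the Y chromosome, the median intensity was 306 and 192 in light and 12.4 and 11.0 in dark. The light and dark arrays were fully apart. Elsewhere the signal was high on replicate 1 of the light-adapted photoreceptor layer (243), inner nuclear layer (232) and whole retina (193), and at most 25.0 on the other arrays. Single-copy Y-linked genes were dim in the ganglion cell layer: Eif2s3y had 9.7 and 7.8 in light and 5.9 and 5.3 in dark, and Uty had 15.7 and 6.7 against 6.0 and 3.8. Kdm5d had 12.8 and 8.7 in light and 10.9 and 10.6 in dark, so its groups overlapped. Xist, the RNA of the inactive X chromosome of females, was at 26.9 and 240.0 in light and 115 and 264 in dark. With the Y-linked signal as a covariate Vmn1r74 had an adjusted p of 0.381. In this layer the signal and light adaptation cannot be told apart.

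Among genes that were higher in dark without passing the adjusted test, the smallest p belonged to Paip2, which encodes a repressor of translation that binds the poly(A)-binding protein. Its intensity was 32.6 and 19.3 in light and 56.2 and 63.3 in dark. Both dark arrays were above both light arrays, with a difference of 1.25 ± 0.22 (limma adjusted p = 0.224). Paip2 was called in 0 of 15 alternative settings of the fit. Its difference ran from 0.87 to 1.63 when single arrays were left out, and was 1.63 without the first light-adapted replicate. Rfesd, a gene for a protein with a Rieske iron-sulfur domain, was at 20.1 and 22.2 in light and 53.6 and 66.9 in dark, a difference of 1.50 ± 0.36. Gpr50, an orphan receptor related to the melatonin receptors, was at 22.2 and 28.6 in light and 52.9 and 58.2 in dark. Its difference was 1.14 ± 0.27, and in Rfesd and Gpr50 the replicates lay closer to each other than to the other group.

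Col14a1, a collagen associated with fibrils, had 48.9 and 34.2 in light and 87.4 and 66.2 in dark (0.90 ± 0.23). Gadd45b, a stress-inducible gene that also belongs to the immediate early list, had 21.6 and 23.6 in light and 50.7 and 45.9 in dark (1.09 ± 0.28). For Rfesd, Gpr50, Col14a1 and Gadd45b the limma adjusted p was 1.0, so none of these differences passed among so many genes.

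On the other side stood 5 genes with lower values in dark that also missed the adjusted threshold. Pes1, whose product pescadillo takes part in making the large ribosomal subunit, was at 151 and 135.5 in light and 74.6 and 80.9 in dark. The difference was -0.88 ± 0.18 (limma adjusted p = 0.399). It passed in 1 of 15 alternative settings of the fit, with no filter on dim probe sets (limma adjusted p = 0.0471). Marchf11, a membrane-bound ubiquitin ligase, was at 146 and 125 in light and 35.1 and 60.4 in dark (-1.55 ± 0.32). A second probe set of Marchf11 was dimmer and differed little, with 31.4 and 41.5 in light and 34.7 and 28.3 in dark (-0.20), so the 2 probe sets disagree.

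Penk encodes proenkephalin, the precursor of opioid peptides found in amacrine and some ganglion cells. It was at 58.3 and 65.3 in light and 23.2 and 28.9 in dark, -1.25 ± 0.31, with both dark values near the median of the other layers (28.55). Midn, which encodes midnolin, a protein that brings nuclear proteins to the proteasome, was at 147.5 and 153 in light and 52.5 and 79.3 in dark (-1.22 ± 0.31). Gzmd, a granzyme protease known from cytotoxic lymphocytes, was at 34.6 and 46.7 in light and 13.5 and 18.2 in dark (-1.36 ± 0.32). The limma adjusted p was 1.0 for Penk, Midn and Gzmd, whose groups did not overlap, as was so for 28.8% of all genes.

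**Figure D2:**
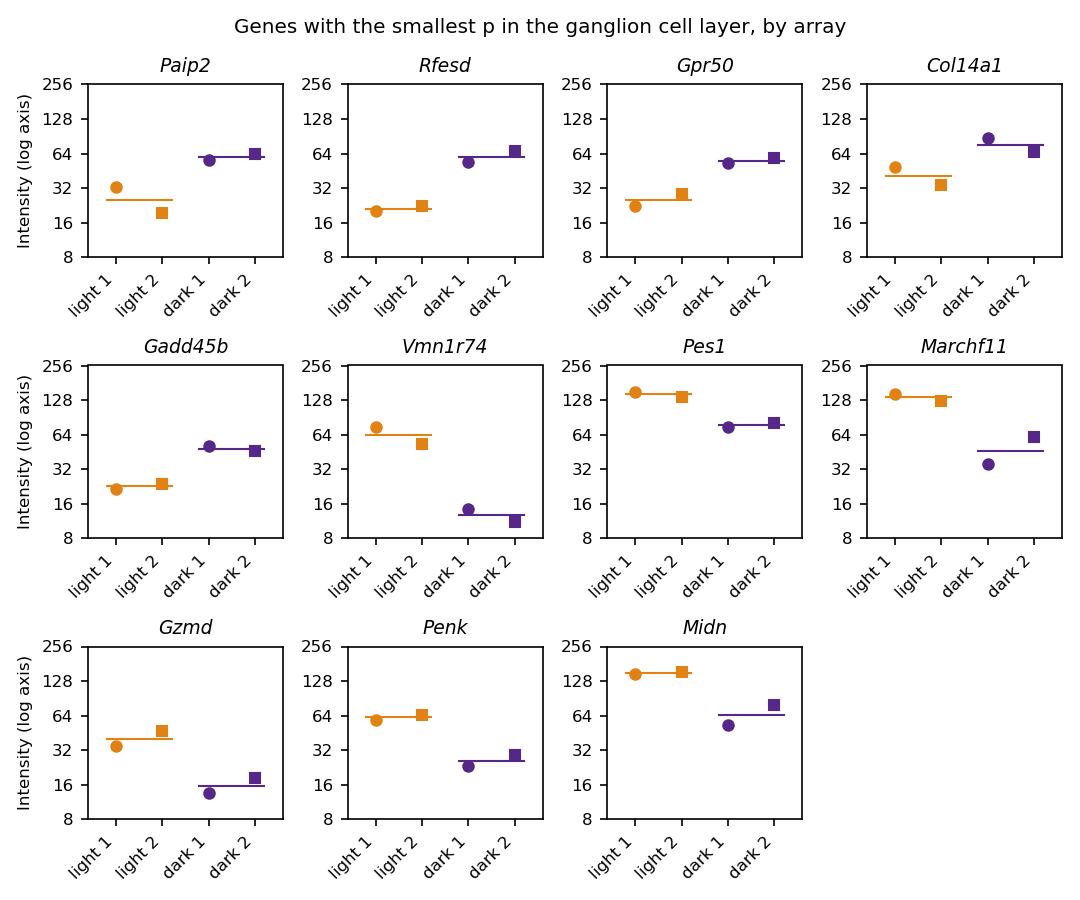
Intensity (log axis) of the 11 genes with the smallest p on each of the 4 ganglion cell layer arrays, light-adapted in orange and dark-adapted in purple, replicate 1 as circles and replicate 2 as squares; lines are geometric means of the 2 arrays. The groups are apart in every panel because small p chose these genes, and only Vmn1r74 passed the adjusted test.

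Some genes had larger differences and larger spread, and are named here after their values were seen. Eola1 was at 40.0 and 32.5 in light and 255 and 157 in dark, a difference of 2.47 ± 0.67. The odorant receptor Olfr151 was at 222 and 130.5 in light and 31.4 and 5.9 in dark (-3.42 ± 0.82). Srsy was at 617 and 399 in light and 82.6 and 54.7 in dark (-2.88 ± 0.90). None of the 3 passed the adjusted test.

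Upstream sequence was read for genes above that hold an E-box, the DNA word bound by the clock proteins CLOCK and BMAL1, since the animals differed in light exposure. The windows are RefSeq's, build GRCm38.p6, from 250 bases before to 50 after the annotated start site, with the E-box (CACGTG) in capitals. Per1, a clock gene whose transcript responds to light in many tissues, is given as the known case. Gadd45b is shown as a gene from the higher side with that word and Pes1 as a gene from the lower side. Whether the other genes above hold it is not given here. The windows are chr11:69098699-69098998 for Per1, chr10:80929841-80930140 for Gadd45b and chr11:3963725-3964024 for Pes1, all on the plus strand.
Per1: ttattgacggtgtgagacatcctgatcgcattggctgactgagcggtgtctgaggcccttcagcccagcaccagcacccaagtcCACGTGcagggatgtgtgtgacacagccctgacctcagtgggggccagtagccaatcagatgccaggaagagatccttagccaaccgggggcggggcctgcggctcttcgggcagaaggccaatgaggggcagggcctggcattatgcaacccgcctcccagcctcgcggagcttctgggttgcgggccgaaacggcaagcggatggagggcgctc
Gadd45b: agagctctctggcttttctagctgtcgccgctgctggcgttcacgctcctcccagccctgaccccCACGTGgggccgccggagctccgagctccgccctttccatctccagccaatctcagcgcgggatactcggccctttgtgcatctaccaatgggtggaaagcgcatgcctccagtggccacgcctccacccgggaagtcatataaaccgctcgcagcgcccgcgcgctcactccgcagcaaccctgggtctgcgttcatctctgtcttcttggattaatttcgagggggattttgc
Pes1: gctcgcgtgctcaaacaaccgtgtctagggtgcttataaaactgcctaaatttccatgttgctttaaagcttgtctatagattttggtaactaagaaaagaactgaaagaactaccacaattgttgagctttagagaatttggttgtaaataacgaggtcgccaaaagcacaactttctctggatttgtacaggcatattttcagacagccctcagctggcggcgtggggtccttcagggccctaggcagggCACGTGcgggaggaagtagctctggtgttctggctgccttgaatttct
The first base of the word lies at -166 in Per1, at -185 in Gadd45b and at 2 in Pes1, counted from the start site. In these data Gadd45b was higher in dark and Pes1 lower, both without passing the adjusted test, while Per1 was at 96.2 and 124 in light and 86.4 and 88.0 in dark (-0.33 ± 0.25).

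The share of windows with the word was then counted. Of 11887 tested genes with a window, 1255 held the E-box (10.6%), against 24 of 257 genes at an unadjusted p under 0.05 with higher values in dark (9.34%) and 20 of 223 with lower values (8.97%). The clock list had it in 5 of 18 windows (27.8%) and the immediate early list in 6 of 23 (26.1%). The cAMP response element (TGACGTCA), through which activity induces many immediate early genes, was in 348 windows (2.93%), in 3 of the 257 (1.17%) and in 8 of the 223 (3.59%). It was present in 2 of 23 immediate early windows and in 1 of 18 clock windows. Both words read the same on either strand, and neither contains the other. A match is a description of the letters, not of a bound site.

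Genes induced by neuronal activity did not pass the test in either direction. Of 30 measured immediate early genes 0 were called, and at an unadjusted p under 0.05 there were 1 higher (Gadd45b) and 1 lower. Over all genes 2.17% were higher and 1.91% lower at that p. The list had a median of -0.11, beside a median of 0.01 over all genes. Values were below 0 in 21 of 30, while 51.2% of all genes were above 0. The list median was 0.04 without replicate 1 of light and 0.00 without replicate 2 of dark. With the replicate number as a block 3 were higher and 1 lower at a small p. Fos, a subunit of the AP-1 transcription factor, was at 39.0 and 45.8 in light and at 52.1 and 29.6 in dark. The dark arrays lay on both sides of the light arrays, and the difference was -0.11 ± 0.28 with a 95% interval of -0.70 to 0.48. Arc, a regulator of glutamate receptor uptake at synapses, was at 110.3 and 127 in light and 132.5 and 77.0 in dark, again overlapping. Egr1, a zinc finger factor, had 32.9 and 45.5 in light and 30.3 and 29.1 in dark (-0.38 ± 0.37, interval -1.17 to 0.41). The nuclear receptor gene Nr4a1 differed by -0.24 ± 0.23 and Npas4, a factor induced by calcium entry, by -0.19 ± 0.22. The member with a small p and a lower value was Dusp1, a phosphatase of MAP kinases, at 86.3 and 137 in light and 77.3 and 73.9 in dark (-0.52 ± 0.24).

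Clock genes gave 0 of 21 called and 0 at an unadjusted p under 0.05 (1 lower with either replicate block), with a median of -0.08. Per2, like Per1 a repressor of the clock, was at 73.0 and 72.8 in light and 76.9 and 68.0 in dark (-0.01 ± 0.24, interval -0.51 to 0.49). The dark pair enclosed the light pair. Arntl, which encodes BMAL1, was at 67.3 and 76.9 in light and 50.4 and 64.1 in dark (-0.34 ± 0.23). Dbp, an output gene of the clock, differed by -0.16 ± 0.30 and the repressor Nr1d1 by 0.15 ± 0.30. Dopamine and melatonin signalling genes, which carry light and dark signals within the retina, had 9 measured members between -0.16 and 0.20, all with the 95% interval inside -1 to 1 and 0 at a small p.

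The genes that define ganglion cells had similar levels in both groups, and differed more between replicate numbers than between dark and light. Of 25 markers 0 were called, and 2 had an unadjusted p under 0.05, both lower, beside 1.91% of all genes. The list median was 0.15 without replicate 2 of light and 0.05 without replicate 1 of dark. Thy1 differed by 0.00 ± 0.22 with an interval of -0.46 to 0.46. Slc17a6, the vesicular glutamate transporter of ganglion cells, was at 98.7 and 291 in light and at 84.2 and 225 in dark: both replicates 2 were high and both replicates 1 low. Nefl, the light neurofilament subunit, was at 166 and 356 in light and 145 and 296 in dark, in the same order. Its interval ran from -1.59 to 1.13, so these arrays give little information on a change of Nefl. Nefm had -0.10 ± 0.47 and Nefh -0.29 ± 0.24. The splicing regulator Rbpms, a pan-ganglion marker, was at 194 and 292 in light and 137.5 and 239.6 in dark (-0.39 ± 0.28).

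Sncg, gamma-synuclein, was the brightest of the markers named here, with 864 and 1064 in light and 628.5 and 1089 in dark. Pou4f1, a transcription factor of ganglion cells, differed by -0.32 ± 0.41. Opn4, melanopsin, was at 50.3 and 71.9 in light and 88.7 and 56.4 in dark (0.23 ± 0.29), but its 12 arrays of other layers had 58.2 to 97.7, so that it did not mark this layer here. The 2 markers with small p were Nrn1, neuritin, a growth factor of neurites, at 79.5 and 75.7 in light and 35.5 and 53.1 in dark (-0.84 ± 0.34), and Gap43, a growth cone protein, at 194 and 174 in light and 98.6 and 156 in dark (-0.57 ± 0.26). In both the groups did not overlap, as was so for 28.8% of all genes. Bdnf, a neurotrophin, was at 0.18 ± 0.26.

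**Figure D3:**
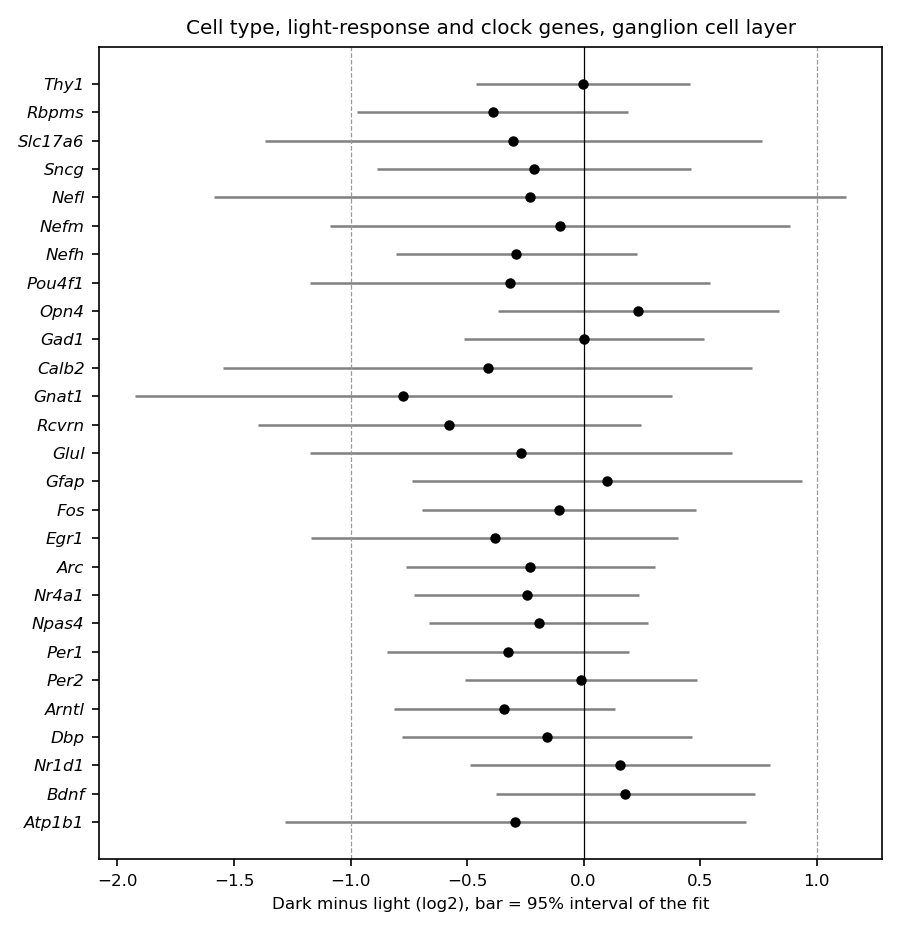
Difference between dark and light (log2, horizontal axis) in the ganglion cell layer for 27 cell type, light-response and clock genes, with the 95% interval of the fit as a bar; dashed lines mark -1 and 1. Every interval includes 0, and 17 lie inside -1 to 1; the wide ones, such as Nefl, Gnat1 and Slc17a6, belong to genes whose replicates differ.

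The replicate number carried more of the variation than adaptation did. Over the 15057 genes, the sum of squares among the 4 arrays was split into 27.3% for adaptation, 47.1% for the replicate number and 25.6% for the remainder. The correlation across genes was 0.915 between the 2 replicates 1 and 0.897 between the 2 replicates 2, against 0.855 within light and 0.887 within dark. The share of the replicate number was 74.2% for 30 neurofilament and axonal cytoskeleton genes, 80.0% for 7 sodium pump subunits, 66.0% for 43 synaptic vesicle genes and 63.7% for the ganglion cell markers. Some lists went the other way. The replicate number had 11.1% against 26.3% for adaptation in rod markers, and 24.0% against 36.4% in cone markers. It had 33.7% against 35.4% in immediate early genes, 33.8% against 55.5% in pigment epithelium markers and 24.0% against 55.6% in blood cell markers. In the neurofilament list 25 of 30 genes were higher in replicate 2 in both groups, by a median of 0.55 in light and 0.63 in dark. Atp1b1, a sodium pump subunit, was at 355.5 and 782 in light and 309 and 600.2 in dark. The sodium pump list as a set did not follow the replicate number. Its median of replicate 2 minus replicate 1 was -0.024 in light and -0.004 in dark, and 3 of 7 genes were higher in replicate 2 in both groups. The labels do not say whether arrays of the same number share an animal, a dissection or a day. With the replicate number as a block the count at an unadjusted p under 0.05 was 862, and with a block for each number within a tissue 938, against 614 without; Vmn1r74 remained the only gene called. In bulk tissue of this kind, fewer cells of a type and less RNA per cell cannot be told apart.

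Axonal and synaptic lists leaned to lower values in dark without a called gene. The neurofilament list had a median of -0.21 with 24 of 30 below 0, and 0 of 30 called, while 51.2% of all genes were above 0. Leaving out replicate 2 of light turned that median to 0.20, and leaving out replicate 1 of dark to 0.18, while leaving out the other 2 arrays gave -0.47 (replicate 1 of light) and -0.54 (replicate 2 of dark). The lean thus had no stable sign. The ganglion cell markers behaved likewise, with a median of -0.10 and values of -0.36 to 0.15 when single arrays were left out. Tubb2a, a beta-tubulin, had an unadjusted p under 0.05, with 56.7 and 69.2 in light and 35.6 and 35.7 in dark (-0.81 ± 0.27).

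Of 43 synaptic vesicle and SNARE genes 0 were called and 5 had a small unadjusted p, all lower in dark, beside 1.91% of all genes. The list median was -0.16. Without replicate 2 of light 0 were lower and 1 higher at a small p, and with the rod marker level as a covariate 2 were lower. The median was 0.01 without replicate 2 of light and 0.05 without replicate 1 of dark, so its sign was not stable. The 5 were Cplx4, a complexin of ribbon synapses, Slc17a7, the glutamate transporter of photoreceptor and bipolar terminals, Syt3, a synaptotagmin, Unc13c, a vesicle priming factor, and Vamp1, a synaptobrevin. Cplx4 was at 49.0 and 107 in light and 40.1 and 33.9 in dark (-0.97 ± 0.31), and Slc17a7 was at 141.5 and 216 in light and 147 and 61.2 in dark (-0.88 ± 0.32). Both were highest on replicate 2 of light. Syt3 was even within groups, at 59.7 and 59.4 in light and 41.3 and 42.3 in dark (-0.51 ± 0.24).

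Glutamate receptors and scaffolds had 0 of 37 at a small p (median -0.03), and GABA and glycine signalling genes 1 of 22, the GABA transporter Slc6a11, at 91.6 and 75.0 in light and 106 and 136.5 in dark (0.54 ± 0.22). Potassium channels had 2 of 33, both lower: Kcnt1, a sodium-activated channel, at 84.4 and 83.0 in light and 49.8 and 56.5 in dark (-0.66 ± 0.23), and Kcnk1, a 2-pore channel, at -0.63 ± 0.22. Sodium and calcium channels had Scn2b lower (-0.61 ± 0.24) and Cacna1c higher (0.48 ± 0.22) among 20 measured. None of these passed the adjusted test. Over all genes 2.17% were higher and 1.91% lower at an unadjusted p under 0.05.

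Rod transcripts differed more between the light-adapted replicates than any other of the 12 lists plotted by array. The mean log2 level of 21 rod markers was 6.25 and 7.70 in light and 6.71 and 6.03 in dark, against 9.41 in the photoreceptor layer. Replicate 2 of light was the highest of the 4 arrays for 20 of 21. Rod transducin Gnat1 showed the range, with 153 and 843 in light and 322 and 137.5 in dark. The list's median was -0.58, with 18 of 21 below 0, while 51.2% of all genes were above 0. Of the list 0 were called and 5 were lower at a small p (Pdc, Pde6b, Prph2, Rom1 and Cnga1), beside 1.91% of all genes. Without replicate 2 of light the median was 0.05 and 0 were at a small p; without replicate 1 of light it was -1.19 and 16 were. Cplx4, Slc17a7 and the cone arrestin Arr3 (27.0 and 82.3 in light, 26.3 and 20.2 in dark, -1.03 ± 0.41) also peaked on that array. With the mean rod marker level of an array as a covariate, Arr3 was at -0.44, Cplx4 at -0.53 and Slc17a7 at -0.54. Only Cplx4 kept an unadjusted p under 0.05, and the cone list then had 1 gene higher and 0 lower at that p. The rod list had 1 higher and 0 lower. The covariate is the mean of these same rod genes and removes their shared difference by construction, so the rod count decides nothing. Without replicate 2 of light the 3 genes were at -0.23, -0.41 and -0.58, none at a small p.

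**Figure D4:**
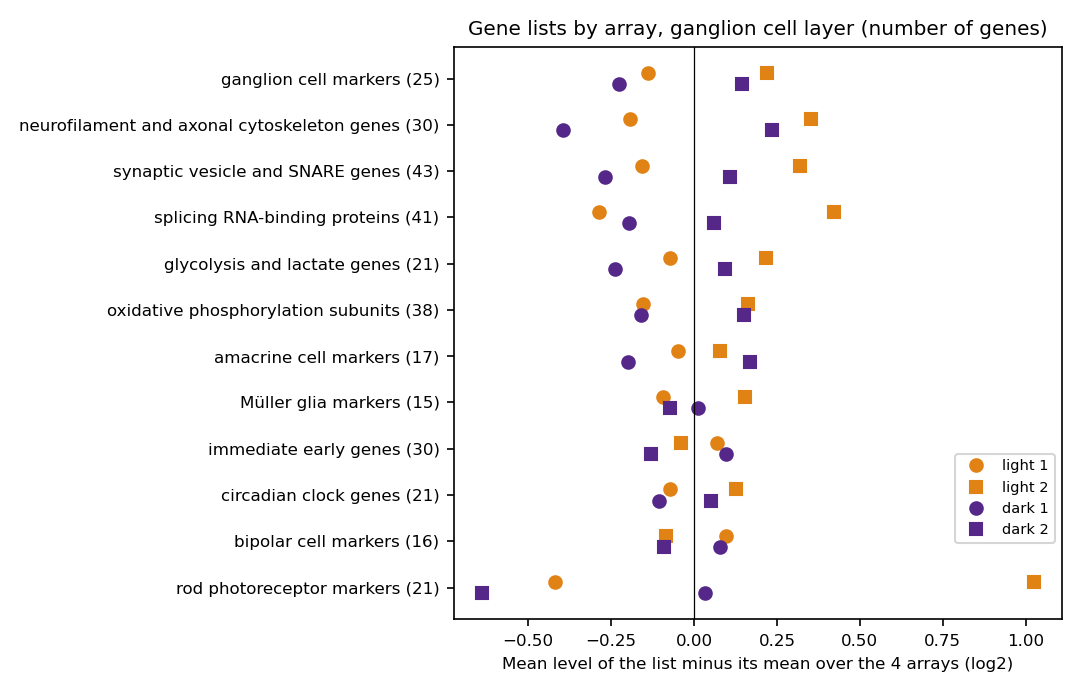
Mean log2 level of 12 gene lists on each ganglion cell layer array, as the distance from the list's mean over the 4 arrays (horizontal axis); light-adapted arrays are orange, dark-adapted purple, replicate 1 circles and replicate 2 squares, and the number of genes stands in parentheses. Squares lie to the right of circles in the ganglion cell, neurofilament and synaptic lists in both groups, and the rod markers are set apart by replicate 2 of light (7.70 against 6.03 to 6.71).

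Markers of the other cell types gave no called gene. Their counts at a small p, here and in the next paragraph, stand beside 2.17% of all genes higher and 1.91% lower. Of 17 amacrine markers 0 had a small p, with a median of 0.01; the GABA-synthesising enzyme Gad1 was at 145 and 164 in light and 157 and 152 in dark (0.00 ± 0.24), and calretinin Calb2 was at 394 and 638 in light and 235.5 and 604 in dark. Gad1 was even on all arrays, while Calb2 followed the replicate number. Bipolar markers had 2 higher and 1 lower of 16: Pcp2, a regulator of G-protein signalling, at 154 and 186.5 in light and 238 and 253 in dark (0.53 ± 0.21), the channel Trpm1 at 26.3 and 15.7 against 35.8 and 34.7 (0.79 ± 0.25), and the receptor Grm6 at 49.4 and 46.4 against 31.7 and 26.9 (-0.71 ± 0.25). Trpm1 and Grm6 belong to the same signalling path of ON bipolar cells and differed in opposite directions.

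Müller glia markers had 0 of 15 at a small p (median -0.12). Glul, glutamine synthetase, was at 242 and 372 in light and 201 and 307 in dark (-0.27 ± 0.43). A second probe set of Glul, of similar brightness, was at 237 and 385 in light and 95.1 and 256.3 in dark (-0.95), so the probe sets disagree in size. Astrocyte markers had 0 of 7, with Gfap at 0.10 ± 0.40. Microglia and macrophage markers had 0 of 10, all with the 95% interval inside -1 to 1. Vascular markers had 1 of 15, the endothelial adhesion protein Pecam1, at 57.6 and 66.3 in light and 47.6 and 30.9 in dark (-0.69 ± 0.25). Mlana of the pigment epithelium list (0.60 ± 0.26) and the neutrophil gene S100a8 of the blood cell list (0.79 ± 0.30) were higher at a small unadjusted p; the lists' medians over 8 and 4 genes were 0.105 and 0.33.

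Genes of energy metabolism and protein synthesis gave no call. Oxidative phosphorylation had a median of -0.10 and glycolysis of -0.13. Of 38 oxidative phosphorylation subunits 2 had a small p, in opposite directions: Cox6c was at 269 and 265 in light and 93.0 and 199 in dark (-0.97 ± 0.29), and Cox7b at 73.0 and 87.4 in light and 103 and 129 in dark (0.53 ± 0.25). Both encode subunits of cytochrome c oxidase. In glycolysis the 2 lactate dehydrogenase genes, Ldha (-0.64 ± 0.25) and Ldhb (-0.51 ± 0.21), were lower at a small p among 21 genes. Ldha, at 224.5 and 363 in light and 142.5 and 235 in dark, also followed the replicate number, while Ldhb was even, at 113 and 117 in light and 79.2 and 82.5 in dark. Ribosomal protein genes had 2 of 38 at a small p, Rps29 higher (0.78 ± 0.26) and Rps20 lower (-0.61 ± 0.22), with a median of 0.06. Heat shock and unfolded protein response genes had 1 of 29, the transcription factor Atf4 (-0.54 ± 0.25). Splicing RNA-binding proteins had 0 of 41 (7 lower without replicate 1 of light, with a list median from -0.48 to 0.24 when single arrays were left out). Long noncoding RNAs had 0 of 7, crystallins 0 of 14, core histones 0 of 7 and apoptosis genes 0 of 19. Over the 33 lists together 632 genes were measured, of which 0 were called and 35 (5.54%) had an unadjusted p under 0.05, 9 higher and 26 lower. Over all genes the share was 4.08%, with 2.17% higher and 1.91% lower. The size of this split depended on single arrays, and its direction on replicate 2 of light. Without that array more genes were higher than lower at a small p. Without replicate 1 of light or either dark array more were lower. With the replicate number as a block the split was 12 higher and 32 lower, and with the block within tissue 11 and 36. With the rod marker level as a covariate it was 10 and 13. That count includes the rod markers whose mean is the covariate.

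The dark effect of this layer was then set against the mean dark effect of the other 3 dissected layers in the same fit. The difference was called for 2 genes (0.0133% of genes), and 949 (6.3%) had an unadjusted p under 0.05. Vmn1r74 had -2.72 ± 0.39 (limma adjusted p = 0.0174); its own dark minus light values were 1.00 on inner plexiform, 0.46 on inner nuclear, -0.235 on photoreceptor and -0.25 on whole retina arrays. Opn1sw, the short-wavelength cone opsin, had 2.06 ± 0.29 (limma adjusted p = 0.0174). It was under the floor on all 4 ganglion cell layer arrays, with values of 1.0 to 6.0, so its difference there was set to 0 by the floor, and this contrast does not measure a dark effect of Opn1sw in this layer. The difference came from the photoreceptor layer, where it was at 628 and 557 in light and 1.4 and 1.5 in dark. With the replicate number as a block, 5 genes were called in this contrast: Cnot6l, Olfr151, Opn1sw, Ube2n and Vmn1r74. With the block within tissue Opn1sw was not called, and the 5 were 4932438A13Rik, Cnot6l, Olfr151, Ube2n and Vmn1r74.

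The genes with small p here varied in the other tissues. Paip2 was higher in dark in the photoreceptor layer (2.23 ± 0.22, limma adjusted p = 0.00011) and in the inner plexiform layer (0.98, adjusted p = 0.0369), at 1.05 in whole retina, and at -0.95 in the inner nuclear layer. Gpr50 had 0.98 in the photoreceptor, 0.82 in the inner plexiform and -0.33 in the inner nuclear layer. Col14a1, Gadd45b, Pes1 and Midn had values between -0.26 and 0.24 in each other tissue. Penk had 0.60 in the inner plexiform layer and -0.21 to 0.18 elsewhere.

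AF067061 and Alms1, a gene of the ciliary basal body, were among the smallest p of the contrast without passing it. Alms1 was at 35.3 and 38.8 in light and 17.5 and 16.1 in dark in the ganglion cell layer (-1.14 ± 0.33), and at 1.21 in the inner plexiform layer. AF067061 was at 34.4 and 39.6 in light and 18.7 and 15.4 in dark (-1.12 ± 0.36), and at 1.90 in the inner plexiform layer. The inner plexiform layer had 108 genes higher and 168 lower in dark and the photoreceptor layer 6 and 1, in the same fit.

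The other gene of this group was Mir431, a microRNA gene of the imprinted Dlk1-Dio3 region, at 70.9 and 76.1 in light and 140.5 and 107 in dark. Its difference was 0.74 ± 0.19 in this layer, and 0.99 ± 0.22 above the mean of the other layers (limma adjusted p = 0.564). Which product of the gene the probe set detects is not given in the sources used here. The 2 mature microRNAs (RefSeq, GRCm38.p6, chr12:109590459-109590479 and chr12:109590502-109590523, plus strand) are shown because their seeds, bases 2 to 8 in capitals, differ and so define different targets.
mmu-miR-431-5p: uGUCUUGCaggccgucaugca
mmu-miR-431-3p: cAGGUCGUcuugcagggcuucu
No value is given here for either arm on its own.

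**Figure D5:**
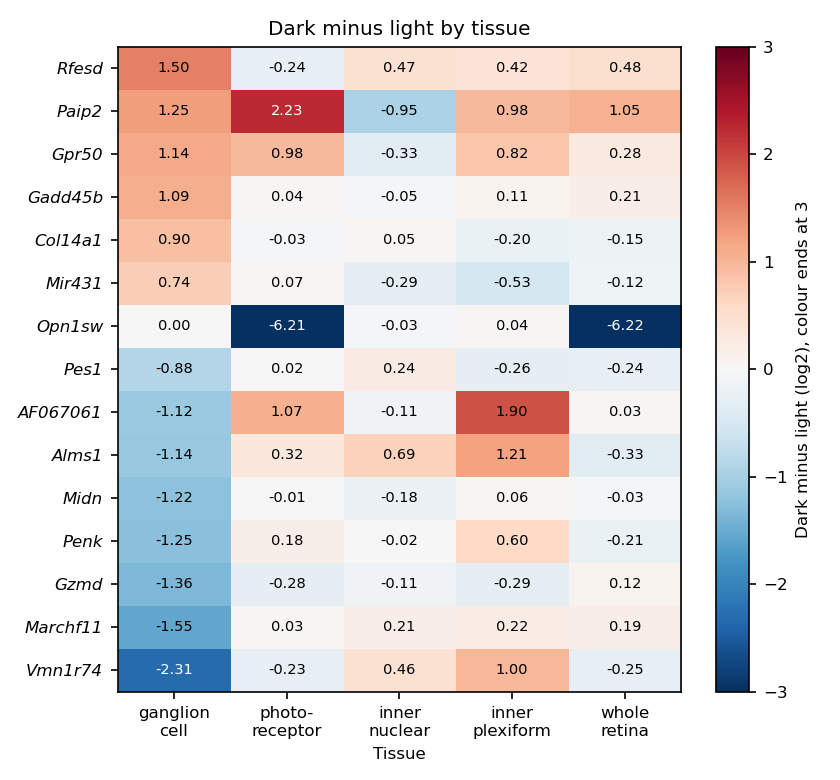
Dark minus light (log2) of 15 genes with small p, in the ganglion cell layer (left column) and in the other layers and whole retina; red is higher in dark, blue lower, and colours end at -3 and 3. Paip2 was above 0 in 4 of the 5 columns and Opn1sw differed in the photoreceptor layer and whole retina only, while Penk, Midn and Marchf11 had their large values in the left column.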

How the data were processed

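Deposited values were linear-scale intensities for 35557 probe sets, which the authors made with GCRMA (background correction, normalisation between arrays and summary of probe sets; version not stated), per the submitters' processing notes. That they are linear was read from the values. Values under 8 were set to 8 (11.3% to 14.1% of an array) and log2 was taken. Probe sets with 1 gene symbol (21789; 1621 had several and 12147 were not listed) and a log2 value over 5 on at least 2 of 20 arrays were kept (16444), and a gene was its probe set with the highest mean (15057 genes). Symbols were updated through RefSeq (21698 matched).

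One limma fit (limma 3.58.1, R 4.3.3; eBayes with intensity trend) had a mean for each of 10 groups and 10 residual degrees of freedom, so the spread is shared with the other tissues. Tests are two-sided and p-values were adjusted by Benjamini-Hochberg over all genes. The script was tested on simulated data. The members, gene lists and tests were chosen with earlier results of these data known. Named genes are those called, the 5 smallest p in a direction with under 5 calls and in the contrast with the other layers (chemosensory receptors and predicted genes passed over unless nothing else was called), and 30 fixed genes, of which 27 were measured; the others are not analysed here. List members at an unadjusted p under 0.05 were named after their values were seen.

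Deviations of same-numbered arrays of a tissue from their group means correlated across genes at 0.114 to 0.344 in the 5 tissues, which counts as pairing the samples by number, from the data and not the labels. The printed differences, errors and p-values come from the fit without a block, as planned. Genes called with the block are given, but small-p counts of lists only in part. With the block the rod list had 6 lower at a small p, and 7 with the block within tissue. These counts were 3 and 3 for the neurofilament list, 1 and 2 for splicing proteins and 1 and 1 for clock genes. Oxidative phosphorylation had 2 higher with either block. Over all 45 pairs of groups the correlation was 0.006 to 0.479, and over 0.1 in 32. Alternatives covered normalisation (quantiles, median centring), the filter on dim probe sets (none, or log2 over 7), an offset of 16 in place of the floor, averaging of probe sets, the variance model (no trend, array weights), a minimum difference of 1, fits on fewer tissues, the replicate block, 2 covariates (Y-linked signal, rod markers) and leaving out each array. Leaving out arrays of other tissues for the main counts, and whole retina arrays for the contrast, was added after seeing the data. The number of arrays limits the precision.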

Additional observations from a re-analysis of the deposited data

Results flagged for a closer look

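For 2 genes the contrast of the dark effect between the ganglion cell layer and the mean of the other 3 layers passed the test. Opn1sw had a difference of 2.06 ± 0.29; its ganglion cell layer arrays were all under the floor, which set the difference there to 0, so the value reflects the photoreceptor layer and is no measured difference of this layer's dark effect. Vmn1r74 had -2.72 ± 0.39, with lower values in dark in the ganglion cell layer and values from -0.235 to 1.00 in the other layers; the Y-linked signal was high on the same 2 light arrays, and its part was not tested beyond the covariate fit.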

How the results depend on the processing

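With 2 arrays a group the spread of replicates limits what can be seen: the 95% interval lay inside -1 to 1 for 74.2% of genes, and genes under the floor have only a bound. The count of genes higher in dark, 0, was 2 with no filter on dim probe sets, and 0 to 1 when single arrays were left out (Paip2, without replicate 1 of the light-adapted layer). The count lower in dark, 1, was 3 with no filter and 0 with the filter at log2 over 7 (Vmn1r74 not tested there), with array weights, with only the 4 layers, with only the 4 arrays of the layer, without the light-adapted inner plexiform arrays, with the Y-linked signal or with the rod marker level as a covariate; it was 0 to 1 when single arrays were left out. Vmn1r74 was called in 8 of the 14 alternatives that tested it (adjusted p 0.023 to 0.764). With single arrays left out it was called only without either light-adapted photoreceptor or either dark-adapted inner nuclear array, 4 of 20, and without replicate 1 of the light-adapted ganglion cell layer Med24 was called lower in its place. The contrast with the other layers, 2 genes, gave 5 with the replicate block and 5 with the replicate block within tissue, 1 without the light-adapted inner plexiform arrays, and 0 with the filter at log2 over 7, with only the 4 layers and with either covariate. It gave 0 to 3 when single arrays were left out: 0 or 1 without any 1 of the 4 ganglion cell layer, 4 photoreceptor or 2 light-adapted whole retina arrays, and 2 or 3 otherwise. The block within tissue lost Opn1sw, and otherwise neither block lost a call. The other alternatives left the 3 counts as they were, but with no filter the 2 genes of the contrast were Ear14 and Opn1sw, so Vmn1r74 was lost there. Of 42 named genes none that was called or whose interval left out 0 changed sign, while 21 whose interval spans 0 did under some setting.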
